A study of Mus musculus with 6 samples.

Results

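The NFAT transcription factors and calcineurin, the phosphatase that activates them, were followed through 10 mouse genes. They were Nfatc1, Nfatc2, Nfatc3, Nfatc4, Nfat5, Rcan1, Ppp3ca, Ppp3cb, Ppp3cc and Ppp3r1. The members were chosen by symbol, and every probe set that the platform annotation assigns to a single one of these symbols was taken, which gave 37 probe sets of 45037 and 10 genes of 18193. A further probe set assigned jointly to Ppp3r1 and a neighbouring symbol was left out. Bone marrow macrophages of C57BL/6 mice, either wild type (WT) or knockin (KI), received 44 ng/ml of M-CSF, a macrophage growth factor, plus 100 ng/ml of RANKL, the osteoclast-inducing cytokine, for 24 h, and their total RNA was hybridised to mouse 430 2.0 expression arrays. The study's title names the IVVY motif of RANK, the receptor of RANKL, as its subject. The labels give neither the residues changed in the knockin allele nor the age of the mice. Both groups received both cytokines and no untreated cells were profiled, so each difference below is KI against WT after RANKL and not a response to RANKL. Each group had 3 arrays, numbered here as in the labels. Nothing in the labels says that the 3 came from separate mice or cultures, so the p-values measure only the spread between these samples, which may be technical.

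In resting cells NFATc proteins are phosphorylated and held in the cytoplasm. Calcium entering the cell binds calmodulin, which switches on calcineurin, and calcineurin strips the phosphates so that NFAT moves into the nucleus. In osteoclast precursors, RANK signalling through NF-kB and AP-1 together with calcium oscillations raises NFATc1, which then acts on its own promoter and is known as the master regulator of osteoclast differentiation.

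Each value below is a probe set's intensity, the brightness of its probes on a linear scale as deposited by the authors. Intensities of different probe sets are not comparable as amounts of RNA. Differences between groups are on the log2 scale, KI minus WT, after intensities under 16 were raised to 16, so that -1 means halved. A change was called at a Benjamini-Hochberg adjusted p under 0.05 from limma's moderated test over the 22518 probe sets whose mean was above the median. Of the members' 37 probe sets, 26 were tested and 11, among them all 4 of Nfatc4, were too dim. In KI cells 8 of the 26 were lower and 4 were higher, so 12, or 46.2%, were called. Over all tested probe sets 44.9% were called, 25.6% lower and 19.3% higher, so the members' share is near the background. The 3 WT and 3 KI intensities did not overlap on 15 of the 26 (57.7%), against 60.9% of all tested. The median change of the members was -0.13, beside -0.04 over all tested. Because these are bulk samples, fewer cells of a type and less RNA per cell cannot be told apart.

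Array medians lay between 83 and 84.8. WT 1 stood furthest from the KI arrays on the leading principal component, with a score of -66.5 against -30.1 and -29.4, and KI 1 stood furthest the other way, at 54.0 against 32.1 and 39.9. All 8 macrophage markers and all 6 osteoclast precursor markers were above the filter, so the markers of the labelled cell type were present. The summed intensity of the macrophage list was 90761 to 111245 on the WT arrays and 135581 to 141077 on the KI arrays, whereas the osteoclast precursor list summed to 63214 to 72039 and 29602 to 32891. Within that list Tnfrsf11a, which encodes RANK, differed the other way by 0.22 without passing (limma adjusted p = 0.56). Its other members, Acp5, Ctsk, Mmp9, Dcstamp and Atp6v0d2, recur below among the osteoclast genes, so the 2 lists are not separate results. Markers of neutrophils and myeloid progenitors (7 of 7 above the filter) summed to 15715 to 19724 in WT and 21993 to 43495 in KI cells. None of the 6 mast cell and basophil markers was above the filter, and the list summed to 254 to 308 in WT and 235 to 259 in KI cells. For B cells 1 of 5 markers was above it (283 to 434 against 326 to 382), for endothelial cells 2 of 5 (752 to 924 against 596 to 663), and for stromal cells and osteoblasts 3 of 4 (2484 to 8511 against 2481 to 9774). The sums of the macrophage, osteoclast precursor, neutrophil and endothelial lists did not overlap between the groups, whereas those of the mast cell, B cell and stromal lists did. The T cell list is given below with Nfatc2. A sum follows its brightest genes. In the neutrophil list S100a8 alone passed (0.84, limma adjusted p = 0.046). In the endothelial list Kdr alone passed (-0.57, limma adjusted p = 0.023), and Cdh5, Tie1 and Tek differed the other way (0.11, 0.20 and 0.02). The part of these transcripts in the members' changes was not tested.

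Nfatc1 RNA was about 2-fold lower in KI cells on 4 of its 5 probe sets. The brightest, 1417621_at, read 7800, 6541 and 7065 on the WT arrays and 3319, 3852 and 3544 on the KI arrays. Every KI array was below every WT array, and the group means were 7135 ± 632 and 3572 ± 268 (SD, n = 3 each). The change was -1.0 (SE 0.09, 95% interval -1.21 to -0.79, limma adjusted p = 0.00064), and 4.01% of all tested probe sets fell at least as far. On 1425761_a_at the WT arrays read 3102, 2499 and 2559 and the KI arrays 1061, 1282 and 1097. The fall there was the steepest of the gene, 2.37-fold (log2 change -1.24, SE 0.12, limma adjusted p = 0.00079). Again no KI array reached the lowest WT array.

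The dimmer pair of Nfatc1 probe sets moved alike, but both are annotated to the same source sequence, so they are not independent readings. 1447084_at read 1273, 939 and 952 in WT cells and 427, 535 and 460 in KI cells, a change of -1.15 (SE 0.15, limma adjusted p = 0.0019). 1447085_s_at read 646, 498.5 and 518 against 272, 261.5 and 266, a change of -1.05 (SE 0.11, limma adjusted p = 0.0012). WT 1 was the highest array on all 4 of these probe sets. Without WT 1 and KI 1 the 4 changes were -0.88, -1.09, -0.93 and -0.95, each still called. Those arrays stood furthest out on the leading principal component. Without them 10670 of all tested probe sets were called, against 10101 with every array. A call under that setting, here and below, is therefore no stricter check.

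The fifth probe set of Nfatc1, 1428479_at, stood apart. Its WT arrays read 2226, 2163 and 2511 and its KI arrays 2249, 1852 and 1865, so KI 1 lay within the WT range. The means were 2300 ± 185 and 1989 ± 226 (SD, n = 3 each), and the change of -0.21 had a 95% interval of -0.46 to 0.04 (limma adjusted p = 0.14). Missing the threshold does not show that it was unaltered. Without WT 1 and KI 1 the change was -0.33 (limma adjusted p = 0.0098). Its log2 ratio to 1417621_at went from a mean of -1.63 in WT to -0.85 in KI cells, a difference of 0.78 (exact two-sided permutation p = 0.10, the smallest that 3 against 3 arrays allow, 0.19 after adjustment over 17 such pairs). Where on the Nfatc1 transcripts each probe set lies was not analysed here.

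**Figure D1:**
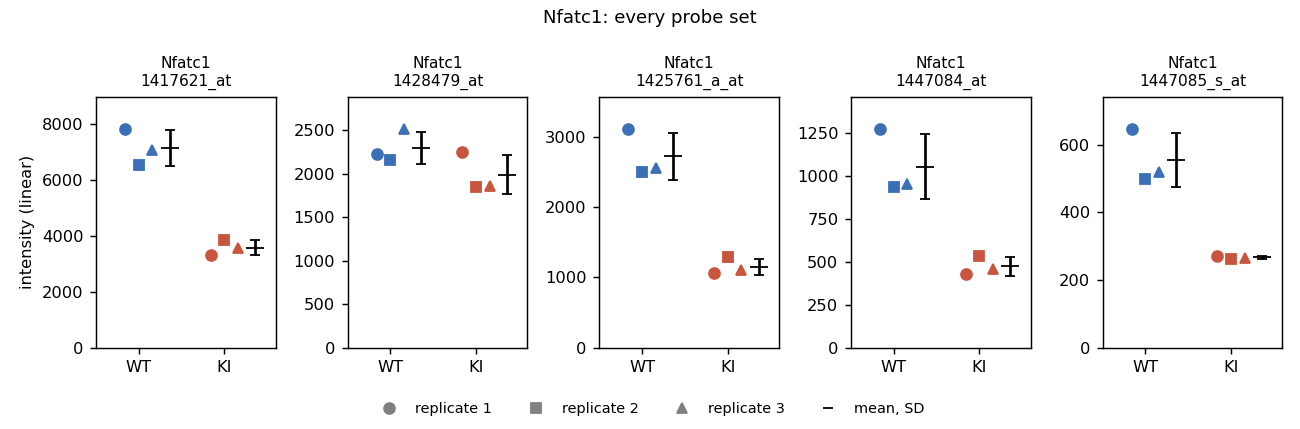
Intensity of the 5 Nfatc1 probe sets on each array, with 1 point an array, a marker shape for each replicate number and a bar at the group mean ± SD (linear axes from 0, 3 arrays a group). The KI points sit below every WT point on 1417621_at, 1425761_a_at, 1447084_at and 1447085_s_at, while on 1428479_at KI 1 at 2249 lies among the WT points.

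The genes with the pattern closest to that of 1417621_at were found by the root mean square distance of log2 values over the 6 arrays, among 19484 tested single-gene probe sets of other genes. They were Cisd1 (distance 0.0256, change -1.02), Setd6 (0.0343, -0.95), Aebp2 (0.0399, -0.96), Timm10 (0.0431, -1.03) and Tomm70a (0.0439, -1.03). The likeness is a description over 6 arrays that share their group difference.

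Nfatc2, which encodes an NFAT best known from T lymphocytes, was higher in KI cells on 1 of 3 tested probe sets. On 1439205_at the WT arrays read 722, 1033 and 1056 and the KI arrays 2533, 2235 and 2283. All KI arrays were above all WT arrays, and the means were 937 ± 186 and 2350 ± 159.9 (SD, n = 3 each). The rise was 2.54-fold (log2 change 1.35, SE 0.16, limma adjusted p = 0.0014), and 2.06% of tested probe sets rose at least as far. Without WT 1 and KI 1 it was 1.11. The other tested probe sets did not move with it, but they were dim, with mean log2 of 7.05 and 6.69 beside its 10.52. How much of their signal is background was not tested. 1426032_at averaged 133 in both groups (change -0.01, 95% interval -0.18 to 0.17, limma adjusted p = 0.95) and 1425901_at averaged 104 in both (0.00, -0.24 to 0.24, limma adjusted p = 0.99). Against 1439205_at, the log2 ratio of each fell by 1.35 in KI cells (exact two-sided permutation p = 0.10, adjusted 0.19). The remaining 3 probe sets, 1426031_a_at, 1440426_at and 1425990_a_at, read between 22.1 and 63.1 and were too dim to test.

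T cell markers were set beside the Nfatc2 rise. Of 7 measured, 4 were above the filter, and the list summed to 1145 to 2223 in WT and 2422 to 3823 in KI cells. Cd3d, Cd3g and Cd8a were below the filter, and Cd3e differed by -0.02 (119 to 140 in WT, 118 to 142 in KI, limma adjusted p = 0.93). Zap70 was higher in KI cells by 0.27 (limma adjusted p = 0.020), and Cd4 differed by 0.65 without passing (0.26). Most of the list's difference lay in Cd28, at 213 to 1091 in WT and 1196 to 2499 in KI cells. Its change did not pass either (1.51, 95% interval -0.17 to 3.20, limma adjusted p = 0.16). The part of these transcripts in the Nfatc2 difference was not tested.

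The 250 bases before both RefSeq starts of Nfatc2 are shown because it was the NFAT family gene that rose. They lie on the minus strand of GRCm38.p6 at chr2:168601658-168601907 and chr2:168590366-168590615 and are written 5′ to 3′ along the gene, with matches to the NFAT core GGAAA (or TTTCC on the other strand) in capitals.
Nfatc2 upstream start: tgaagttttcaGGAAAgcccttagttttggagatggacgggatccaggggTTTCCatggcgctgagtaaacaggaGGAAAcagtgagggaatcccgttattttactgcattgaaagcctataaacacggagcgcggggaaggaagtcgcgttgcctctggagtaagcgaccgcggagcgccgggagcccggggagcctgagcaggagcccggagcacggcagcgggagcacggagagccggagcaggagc
Nfatc2 downstream start: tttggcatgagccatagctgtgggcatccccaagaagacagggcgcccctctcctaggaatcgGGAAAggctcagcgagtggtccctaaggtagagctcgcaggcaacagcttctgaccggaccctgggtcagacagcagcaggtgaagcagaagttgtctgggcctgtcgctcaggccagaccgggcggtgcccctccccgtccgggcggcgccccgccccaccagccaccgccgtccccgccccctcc
The upstream window holds 3 cores, whose first bases lie 239, 200 and 175 bases before the start, and the downstream window holds 1 at 187. Of 32851 RefSeq windows of the same length, 55.6% hold at least 1 core and 6.39% hold 3 or more, so a single match is common. Neither window has the AP-1 letters TGANTCA or the cyclic AMP response element TGACGTCA. A match is a run of letters and does not show binding. Windows of 7 of the 10 genes were read, and none was read for Nfatc1, Ppp3ca and Ppp3cc. The search left out a chromosome, so a missing window does not show that the table used lacked it.

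Nfatc3 and Nfatc4, the other calcium-regulated NFATs, showed no called change. On 1419976_s_at of Nfatc3 the WT arrays read 1523, 1375 and 1379 and the KI arrays 1202, 1284 and 1238. The groups did not overlap, yet the change of -0.20 missed the threshold (95% interval -0.38 to -0.01, limma adjusted p = 0.075). On 1452497_a_at the arrays read 429, 231 and 257 in WT and 231, 248 and 239.5 in KI cells, and WT 1 alone was high. The change of -0.30 (95% interval -0.83 to 0.23, limma adjusted p = 0.31) became -0.02 without WT 1. The 4 Nfatc4 probe sets, 1454369_a_at, 1423380_s_at, 1432821_at and 1423379_at, read between 26.5 and 87.1 on the 6 arrays, and none was bright enough to test.

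Nfat5, the member that responds to osmotic stress and lacks the calcineurin docking region, was lower in KI cells on each of its 3 tested probe sets. 1438999_a_at read 998, 984 and 1015 in WT and 756, 649.5 and 671 in KI cells, a 1.45-fold fall (log2 change -0.53, SE 0.09, limma adjusted p = 0.0038). 1439805_at read 537, 428.5 and 470 against 326.5, 236 and 282, a 1.71-fold fall (-0.77, SE 0.14, limma adjusted p = 0.0063). On neither did the groups overlap. 1439328_at read 292, 271 and 284 against 236, 198 and 205, again without overlap (-0.41, SE 0.09, limma adjusted p = 0.013). Its call ended without KI 3, where the change was -0.38 (limma adjusted p = 0.055). Under that setting 6793 of all tested probe sets were called, against 10101 with every array. When the serial number that the labels give each sample entered the fit as a covariate, 1439805_at changed by -0.58 (limma adjusted p = 0.059) and 1439328_at by -0.28 (0.11). The other Nfat5 probe sets, 1426029_a_at, 1448966_a_at and 1451921_a_at, read between 20.8 and 34.7 and were too dim to test. On 1451921_a_at the KI arrays, at 20.8 to 26.4, were below the WT arrays, at 29.9 to 34.7.

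**Figure D2:**
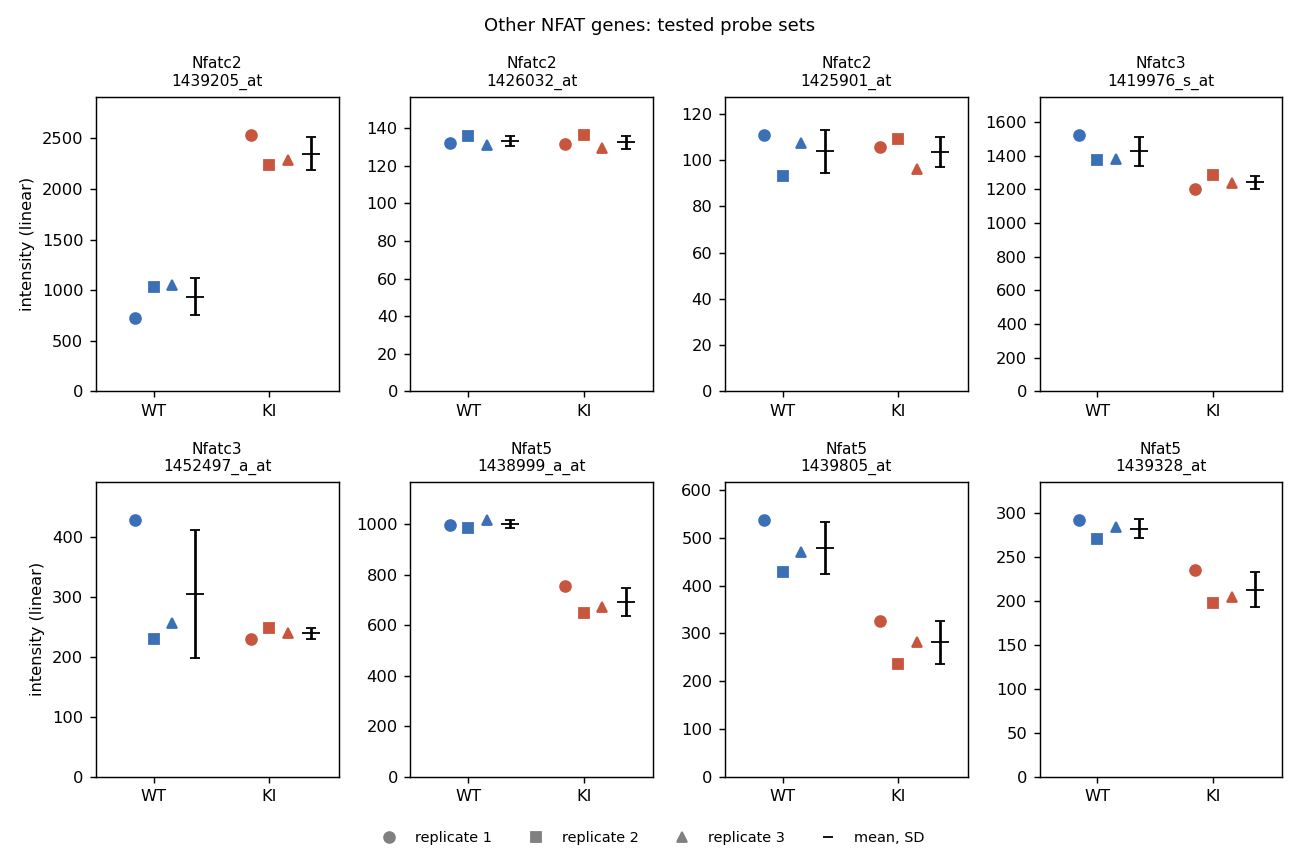
Intensity of the tested probe sets of Nfatc2, Nfatc3 and Nfat5 on each array, with 1 point an array, a marker shape for each replicate number and a bar at the group mean ± SD (linear axes from 0, 3 arrays a group). 1439205_at of Nfatc2 is higher on all 3 KI arrays, the 3 Nfat5 probe sets are lower on all 3, and 1452497_a_at of Nfatc3 shows WT 1 at 429 alone above the rest.

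Of the catalytic subunits of calcineurin, Ppp3ca, which encodes the alpha subunit, was higher in KI cells on each of its 3 probe sets. 1426401_at read 1645, 1933 and 2205 in WT and 3733, 3087 and 3206 in KI cells, with means of 1927 ± 280 and 3342 ± 344 (SD, n = 3 each). No array of one group entered the range of the other, and the rise was 1.74-fold (log2 change 0.80, SE 0.13, limma adjusted p = 0.0037). 1438478_a_at read 1303, 1395 and 1578 against 2792, 2205 and 2022 (0.71, SE 0.14, limma adjusted p = 0.0073). 1452056_s_at read 1149, 1291 and 1389 against 2160, 1743 and 1762 (0.56, SE 0.12, limma adjusted p = 0.0090). It is annotated to the same source sequence as 1426401_at, so these are not independent readings. KI 1 was the highest and WT 1 the lowest array on all 3. Without both the changes were 0.61, 0.51 and 0.39, each still called.

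Ppp3cb, the beta catalytic subunit, was lower on 1 of its 4 tested probe sets. 1433835_at read 2378, 1732 and 1841 in WT and 1170, 1219 and 1133 in KI cells, with means of 1984 ± 346 and 1174 ± 43.3 (SD, n = 3 each). The groups were apart, and the change was -0.74 (SE 0.13, limma adjusted p = 0.0047). The brightest probe set, 1428473_at, read 4205, 4040 and 3969 against 3952, 4055 and 3903. Those values overlapped, and the change of -0.04 had a narrow interval of -0.17 to 0.10 (limma adjusted p = 0.63). 1427468_at (0.02, -0.19 to 0.23, limma adjusted p = 0.89) and 1428474_at (0.00, -0.21 to 0.21, limma adjusted p = 0.98) did not pass either, and 1446149_at, at 18.6 to 20.7, was too dim to test. The log2 ratio of 1433835_at to 1428473_at fell by 0.71 in KI cells (exact two-sided permutation p = 0.10, adjusted 0.19).

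Ppp3cc, the gamma catalytic subunit known mainly from testis, was dim and without a call. 1420743_a_at read 111, 86.2 and 102 in WT and 80.4, 78.3 and 83.7 in KI cells. The groups did not overlap, but the change of -0.30 missed the threshold (95% interval -0.56 to -0.03, limma adjusted p = 0.065). It passed without WT 2 (-0.40, limma adjusted p = 0.027). 1430025_at differed by 0.08 (-0.12 to 0.29, limma adjusted p = 0.46).

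Ppp3r1, the calcium-binding regulatory subunit that each catalytic subunit needs, showed no called change. 1433591_at read 3301, 3500 and 3544 in WT and 3238, 3266 and 3156 in KI cells. The KI arrays were lower without overlap, by -0.10 (95% interval -0.24 to 0.04, limma adjusted p = 0.22). 1421786_at differed by -0.07 (-0.30 to 0.17, limma adjusted p = 0.60).

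Rcan1 encodes an inhibitor of calcineurin, and one of its transcripts is a textbook NFAT target whose level is used as a readout of calcineurin activity. 1416600_a_at read 1390, 1115 and 1049 in WT and 1061, 1280 and 1256 in KI cells. The groups overlapped, and the change was 0.02 (95% interval -0.29 to 0.34, limma adjusted p = 0.90). 1416601_a_at read 358, 228 and 236 against 236, 282.5 and 210, also overlapping (-0.15, -0.62 to 0.32, limma adjusted p = 0.56). WT 1 was the highest array on both. Without WT 1 and KI 1, 1416600_a_at was higher in KI cells by 0.23 (limma adjusted p = 0.029).

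Both RefSeq starts of Rcan1 are shown because the gene is known to have an NFAT-responsive inner start. The windows lie on the minus strand of GRCm38.p6 at chr16:92400079-92400328 (inner) and chr16:92466170-92466419 (outer). Capitals mark matches to the same NFAT core, to the AP-1 letters TGANTCA and to the palindrome TGACGTCA.
Rcan1 inner start: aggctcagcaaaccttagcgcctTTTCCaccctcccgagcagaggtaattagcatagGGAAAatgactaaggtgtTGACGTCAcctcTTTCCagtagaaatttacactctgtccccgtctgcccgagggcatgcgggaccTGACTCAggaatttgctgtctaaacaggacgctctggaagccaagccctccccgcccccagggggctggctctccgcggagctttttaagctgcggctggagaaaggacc
Rcan1 outer start: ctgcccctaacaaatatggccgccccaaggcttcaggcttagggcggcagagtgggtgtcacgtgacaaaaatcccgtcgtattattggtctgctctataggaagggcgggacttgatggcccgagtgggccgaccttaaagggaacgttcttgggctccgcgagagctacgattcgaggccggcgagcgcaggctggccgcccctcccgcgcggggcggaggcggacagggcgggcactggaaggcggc
The inner window holds 3 NFAT cores, at 227, 193 and 163 bases before the start, with 1 TGACGTCA at 175 and 1 TGANTCA at 110. TGANTCA is found in 6.75% and TGACGTCA in 1.55% of the 32851 windows, and neither overlaps a core here. The outer window holds none of the 3 motifs. Which start each Rcan1 probe set reports was not analysed here.

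**Figure D3:**
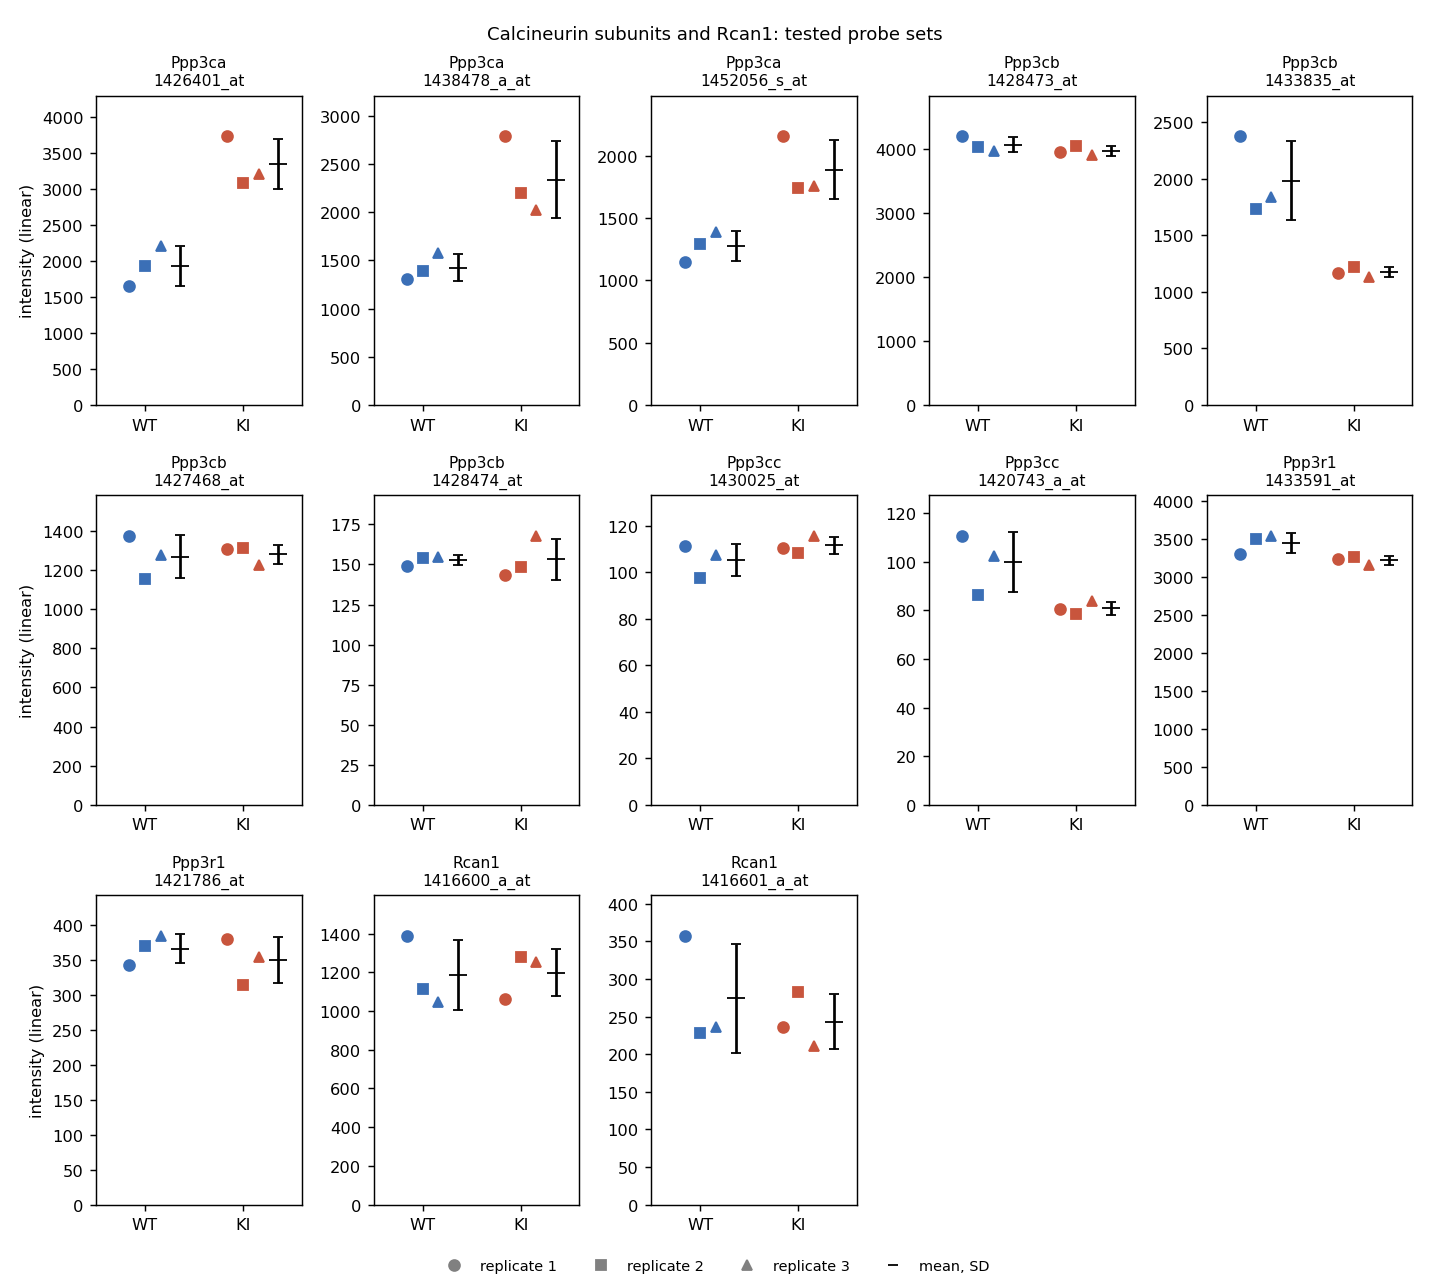
Intensity of the tested probe sets of Ppp3ca, Ppp3cb, Ppp3cc, Ppp3r1 and Rcan1 on each array, with 1 point an array, a marker shape for each replicate number and a bar at the group mean ± SD (linear axes from 0, 3 arrays a group). The 3 Ppp3ca probe sets are higher on every KI array, 1433835_at is the only Ppp3cb probe set that is lower on every KI array, and the Rcan1 points overlap.

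Of the 9 genes with a tested probe set, 5 had a call, and Nfat5 and Ppp3ca were called in one direction on every tested probe set. Nfatc1, Nfatc2 and Ppp3cb each had a called probe set beside at least 1 that was not. Among the 17 pairs of a probe set with its gene's brightest, 9 had log2 ratios that did not overlap between the groups. Over 8548 such pairs of all genes 37.5% did not overlap, and the members' pairs are not independent, since those of a gene share its brightest probe set.

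The scaling of the arrays set some of these calls. Hybridisation controls, bacterial and phage transcripts added to the labelled RNA, are probed on the array by a current and an older group of 9 probe sets each. On the log2 scale the current ones averaged 11.14 to 11.28 on the WT arrays and 11.35 to 11.51 on the KI arrays. The older ones averaged 10.24 to 10.84 and 10.93 to 11.09, so they spread more widely within WT. Scaling to the current controls moved the median of all tested probe sets to -0.25 (9011 lower, 2546 higher, against 5756 and 4345), and scaling to the older ones moved it to -0.57 (10586 and 728). Under the older controls the Ppp3ca changes were 0.27, 0.18 and 0.03 (limma adjusted p = 0.38, 0.58 and 0.92), so no rise was called, although relative to that median they were 0.84, 0.74 and 0.60. The Nfatc2 rise was 0.82 there (limma adjusted p = 0.0096). Under the current controls 1428479_at of Nfatc1 passed as lower (-0.42, limma adjusted p = 0.013), as did 1419976_s_at of Nfatc3 (-0.40, 0.024), 1420743_a_at of Ppp3cc (-0.50, 0.020) and, for Ppp3r1, 1433591_at (-0.30, 0.021) and 1421786_at (-0.27, 0.039). Under the older ones these were -0.74 (0.017), -0.73 (0.021), -0.83 (0.0052) and, for 1433591_at, -0.63 (0.038), and 1416601_a_at of Rcan1 (-0.68, 0.028) and 1452497_a_at of Nfatc3 (-0.83, 0.0081) passed, whereas 1421786_at did not (-0.60, 0.056). Each scaling shifts all probe sets of an array alike.

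**Figure D4:**
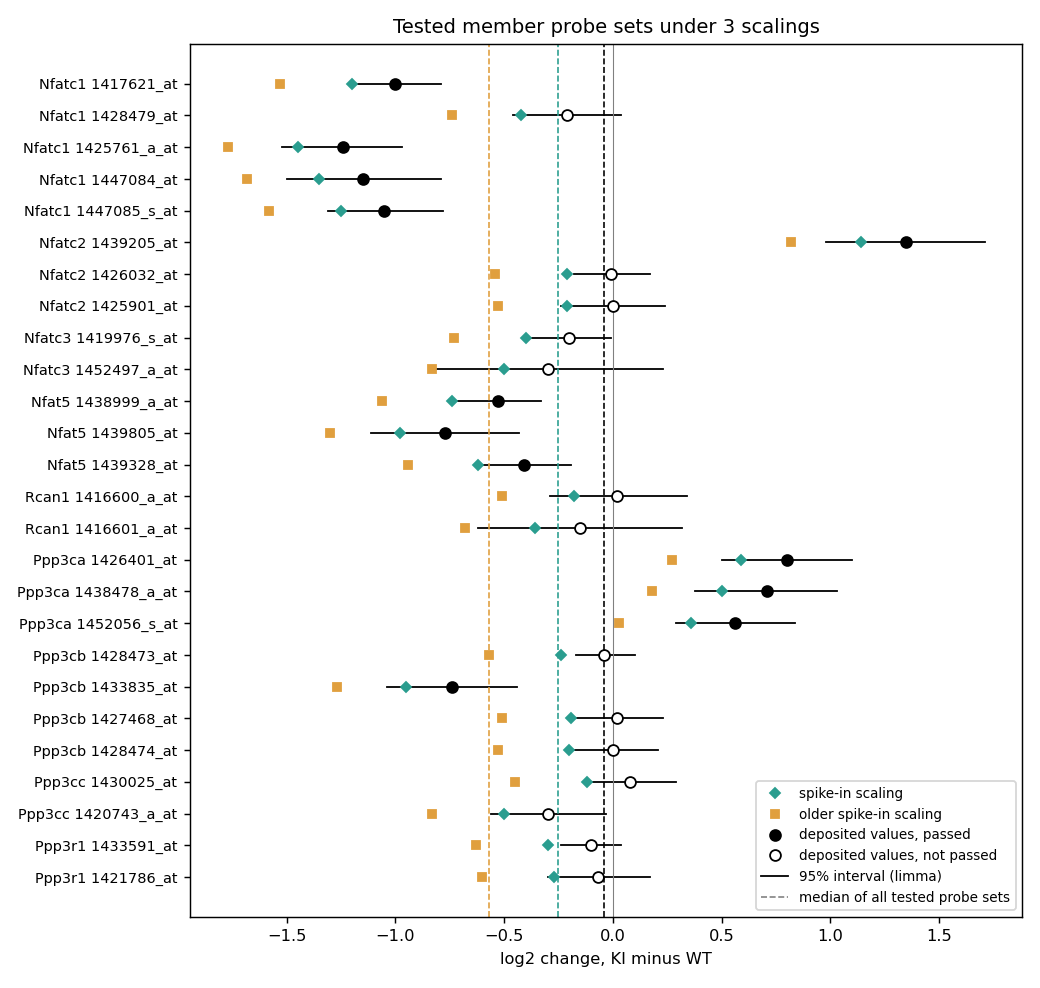
Log2 change, KI minus WT, of the 26 tested member probe sets, as circles for the deposited values (filled where called) with 95% intervals, and as diamonds and squares after scaling to the current and older hybridisation controls; dashed lines mark the median of all tested probe sets under each. Both control scalings move every point left, yet the 4 higher calls of Nfatc2 and Ppp3ca stay right of 0 and the 8 lower calls of Nfatc1, Nfat5 and Ppp3cb left of it.

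Other genes of the pathway were described from 7 lists of 104 genes, of which 93 were measured, with the brightest probe set of each gene fitted over all 18193 genes. Of these 31 were lower, 15 higher and 47 did not pass, where 26.8% of all genes were called, 14.9% lower and 11.9% higher. That fit had no brightness filter, so its share counts dim genes too. Over the probe sets above the median 44.9% were called, 25.6% lower and 19.3% higher, and the lists' total is near that share. That share comes from the other fit, with its own filter and adjustment. The lists hold dim genes too, so neither share is a matched background. The lists were drawn up with results of these arrays known and are no independent evidence of direction.

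Genes of calcium entry, store release and calmodulin, which act before calcineurin, were mixed: of 15 measured, 3 were lower, 6 higher and 6 not passed (median 0.12). Orai2, a store-operated channel subunit, read 1138 to 1237 in WT and 480 to 508 in KI cells (log2 change -1.28, SE 0.06, limma adjusted p = 0.0010). Atp2b1, a plasma membrane calcium pump, read 4149 to 4853 against 6294 to 6424 (0.49, SE 0.07, limma adjusted p = 0.0070). Camk2d, a calmodulin-dependent kinase, rose by 0.80 (SE 0.12, limma adjusted p = 0.0091), and Itpr2, a store release channel, by 0.54 (SE 0.09, 0.011). With the mean of each gene's probe sets Camk2d was 0.36 (limma adjusted p = 0.17) and Itpr2 0.16 (0.23). Without KI 3 the list's higher calls numbered 2, and Itpr2 no longer passed (0.51, limma adjusted p = 0.053). Its lower calls numbered 1 without WT 3, without KI 1 or without KI 3. Under the older spike-in scaling, or with the serial number as a covariate, no gene of the list was called higher. With that covariate 1 was lower, and Atp2b1 (0.48, limma adjusted p = 0.055), Camk2d (0.68, 0.068) and Itpr2 (0.44, 0.078) did not pass.

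Calcineurin's inhibitors, anchors and drug-binding partners gave 3 lower, 2 higher and 7 not passed of 12 (median 0.04). Akap6, an anchoring protein of striated muscle that holds calcineurin, read 766 to 1728 in WT and 83.3 to 122 in KI cells (-3.32, SE 0.35, limma adjusted p = 0.0042). Akap1, a mitochondrial anchor, fell by 1.07 on the log2 scale (SE 0.12, limma adjusted p = 0.0045). Fkbp1a, the FK506-binding protein, fell by 0.29 (SE 0.06, limma adjusted p = 0.026), a call that ended without WT 2, KI 1, KI 2 or KI 3 (-0.31, -0.27, -0.31 and -0.29) or with the covariate (-0.31, limma adjusted p = 0.10). Homer3, a scaffold known to compete with calcineurin for NFAT, rose by 0.58 (SE 0.08, limma adjusted p = 0.0072) and by 0.04 under the older spike-in scaling (0.89). With any single array left out, or with the covariate, 1 gene of the list was called higher.

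The kinases that rephosphorylate NFAT, with its nuclear transport factors, gave 4 lower, 4 higher and 7 not passed of 15 (median -0.03). Dyrk2 read 5102 to 5429 in WT and 3295 to 3577 in KI cells (-0.64, SE 0.05, limma adjusted p = 0.0023). Mapk8, which encodes JNK1, read 1098 to 1421 against 542 to 629 (-1.04, SE 0.12, limma adjusted p = 0.0054), whereas Mapk9, which encodes JNK2, rose by 0.28 (SE 0.05, limma adjusted p = 0.017). Mapk14, which encodes p38 alpha, rose by 0.43 (SE 0.09, limma adjusted p = 0.021). The Mapk9 call ended without WT 2, WT 3 or KI 3 (0.27, 0.27 and 0.29), and the Mapk14 call without WT 2, KI 1, KI 2 or KI 3 (0.44, 0.38, 0.46 and 0.47) or with the covariate (0.50, limma adjusted p = 0.075). Higher calls in the list numbered 0 to 2 with 1 array left out, 1 with the covariate and 0 under either spike-in scaling. Lower calls numbered 2 without WT 1, WT 2, WT 3 or KI 3.

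Genes that promote Nfatc1 induction were lower as a rule: 9 of 13 were lower, none higher and 4 not passed (median -1.24). Fos, the AP-1 subunit required for Nfatc1 induction, read 13086 to 14065 in WT and 5834 to 7379 in KI cells (-1.08, SE 0.10, limma adjusted p = 0.0029). Nfkb2, of the alternative NF-kB pathway, changed by -1.47, Fosl2 by -1.28 and Jdp2, both AP-1 family members, by -1.24. Prdm1 (Blimp1), which represses the antagonists of osteoclast differentiation, changed by -1.55. With WT 1, or both WT 1 and KI 1, left out, 1 gene of this list was called higher. Of the 5 genes measured that restrain Nfatc1 induction, 3 were higher, none lower and 2 not passed (median 0.78), and 5 were higher without WT 1 and KI 1. Rbpj, the Notch pathway factor, read 2807 to 3158 against 4922 to 5278 (0.78, SE 0.06, limma adjusted p = 0.0022; 0.25 and 0.39 under the older spike-in scaling). Bcl6, a repressor, rose by 0.45 (SE 0.06, limma adjusted p = 0.0063), and was 0.25 (0.057) under the current spike-in scaling and 0.41 (0.055) with the covariate. Irf8, the myeloid factor known to bind and restrain NFATc1, read 837 to 2175 in WT and 3950 to 5681 in KI cells (1.58, SE 0.40, limma adjusted p = 0.037). It was 0.99 without WT 1 and KI 1, and its call ended without WT 2, KI 1, KI 2 or KI 3 (1.78, 1.44, 1.70 and 1.61) or with the covariate (1.72, limma adjusted p = 0.13). With the covariate 1 gene of this list was called higher.

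Osteoclast genes that NFATc1 binds or induces gave 8 lower, none higher and 5 not passed of 13 (median -0.92). Mmp9, a matrix protease, read 13757 to 15125 in WT and 1650 to 2356 in KI cells (-2.89, SE 0.13, limma adjusted p = 0.0010), and Acp5, the tartrate-resistant acid phosphatase, 22442 to 23304 against 11345 to 12506 (-0.92, SE 0.05, 0.0010). Src, the kinase of the ruffled border, changed by -1.77 and Car2, the carbonic anhydrase of acid secretion, by -2.18. Of the NFAT targets known from lymphocytes and other cells, 4 of 20 were lower, none higher and 16 not passed (median 0.00). The 4 were Slc5a3, Slc6a12, Slc38a2 and Hspa1b, and no cytokine gene of the list was called. The list was not split by NFAT factor, and which factor acts on each gene here was not tested. Among those not passed, Il2, Il4, Ifng, Csf2, Fasl, Il3 and Pdcd1 read 15.7 to 34.9 on all arrays. They were as dim as the member probe sets too dim to test, so their missing calls and the list's median say little about response. Slc5a3, an inositol transporter, read 7931 to 11729 against 1879 to 2136 (-2.33, SE 0.16, limma adjusted p = 0.0019). Slc6a12, the betaine transporter, read 1480 to 2943 against 174 to 250 (-3.45, SE 0.29, limma adjusted p = 0.0026). Slc38a2, an amino acid transporter, changed by -0.65 and Hspa1b, an inducible heat shock protein, by -1.59. Slc6a6, the taurine transporter, differed the other way by 0.18 without passing (limma adjusted p = 0.073), and Akr1b3 of the same list was not measured here.

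**Figure D5:**
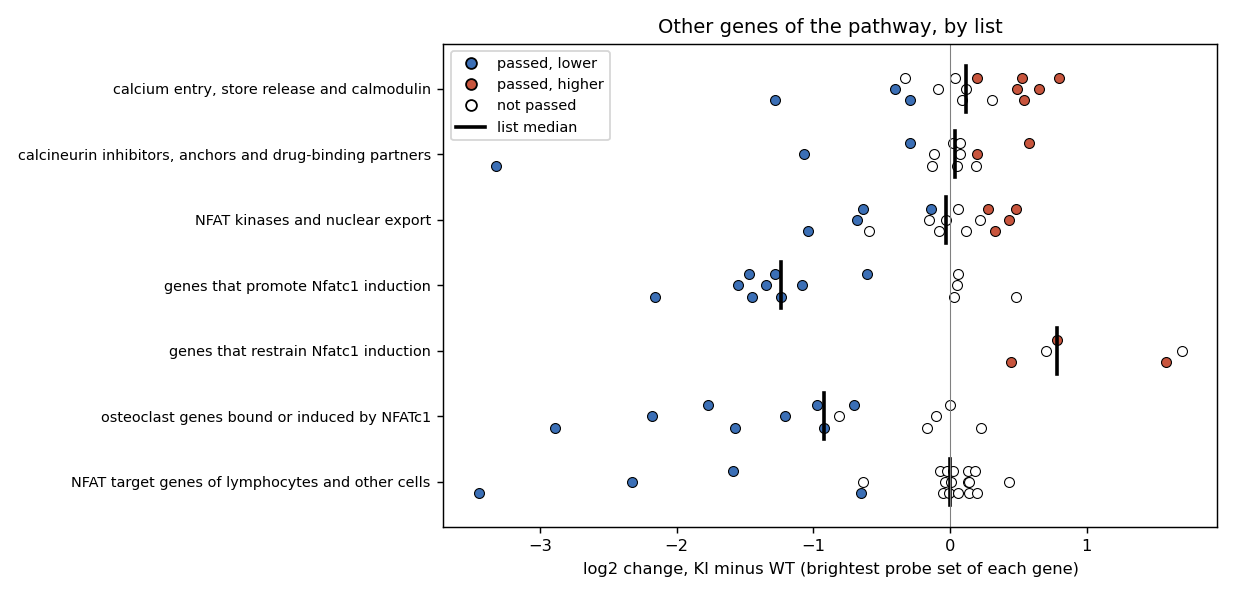
Log2 change, KI minus WT, of the measured genes of each pathway list, 1 point a gene, filled where called, with a vertical bar at the median of each list. The lists of genes that promote Nfatc1 induction (median -1.24) and of osteoclast genes (median -0.92) lie mostly below 0, while those of calcium entry, calcineurin partners and NFAT kinases spread to both sides.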

How the data were processed

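Labelled RNA primed with oligo dT was hybridised to 6 arrays, per the labels' protocols, and the submitters' processing notes name Affymetrix Expression Console. The deposited values are linear intensities per probe set; how the authors summarised and scaled them is not given in the sources read. Values under 16 (5.47%) were raised to 16 before log2. Probe sets were named from the platform annotation: 34945 had 1 symbol, 932 several and 9160 none. Control probe sets (64) were left out. The KI against WT test was limma's (version 3.58.1, R 4.3.3; lmFit, then eBayes with trend and no block), run on probe sets with mean log2 above the median, and, for the pathway lists, on the brightest probe set of each gene without a filter. The limma fit was also run on simulated data, and the outcome is not given here. Ratios between probe sets of a gene were compared by exact two-sided permutation. The small number of arrays limits precision. Promoter windows are RefSeq sequence of GRCm38.p6. Members and lists were chosen with earlier results of these data known. Every member probe set is named in the text, with up to 4 called genes of each list by smallest p, Fos and Irf8, and the 5 probe sets most like Nfatc1. 21 settings were tried as alternatives.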

Additional observations from a re-analysis of the deposited data

How the results depend on the processing

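Over 237 recomputations of the 12 called member probe sets the call held in 230, ended in 7 and changed sign in none; over all 26 tested, 19 recomputations turned an uncalled probe set into a call. Lower member calls numbered 8, and 13 under the current and 14 under the older spike-in scaling; higher ones numbered 4, and 1 under the older. With 1 array left out they numbered 7 to 9 and 4 to 4. Called probe sets numbered 10101, and 6481 with each sample's serial number as a covariate. Called genes numbered 4868, 8619 under the older spike-in scaling, 1671 with that covariate and 2011 to 4381 with 1 array left out. Other pathway genes called higher numbered 15, then 7 under the current and 2 under the older spike-in scaling, 23 with array weights, 4 with the covariate and 5 to 14 with 1 array left out (7 without WT 2, 9 without KI 1, 5 without KI 3). Under the older spike-in scaling Atp2b1 (-0.04), Mapk9 (-0.25), Mapk14 (-0.10) and Bcl6 (-0.08) changed sign. That scaling shifts every gene alike, here by -0.53, and relative to its median over all genes of -0.51 the 4 were 0.47, 0.26, 0.42 and 0.44. Same-numbered arrays' deviations from their group means correlated at -0.40, -0.29 and -0.30, and those of other WT and KI arrays at -0.28 to 0.40. The replicate numbers thus gave no sign of a pairing, but 3 arrays a group cannot exclude one. With the replicate block, called probe sets numbered 6184, called genes 344, member probe sets 8 lower and 3 higher (1452056_s_at of Ppp3ca had limma adjusted p = 0.051), and other pathway genes 16 lower (31 without it) and 1 higher. The mean of a gene's probe sets gives no value for a single probe set, and the array weights were taken from an estimation that stopped before convergence.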

Other observations

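Disagreement between probe sets of a gene, as seen for Nfatc1, Nfatc2 and Ppp3cb, was common on these arrays. Of 3259 genes with at least 2 tested probe sets and a call, 1591 (48.8%) were called in one direction on every tested probe set, 1628 (50.0%) on some only, and 40 (1.23%) had calls in both directions.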
